A study of Homo sapiens with 12 samples.

Results

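G-quadruplex-forming oligonucleotides were set against their controls in HBC4, a human breast cancer cell line. The comparison used 4 of the 12 arrays of the series, all the arrays of that line. The 2 G4 arrays came from cells given (uuaggg)4, an RNA oligonucleotide (ORN), or AS1411, a DNA oligonucleotide (ODN). The 2 control arrays came from cells given the transfection reagent with no oligonucleotide, labelled lipofectamin only, or the cytosine-containing RNA (uuaccc)4. Every probe set that names 1 gene and is not an array control was used, which gave 19775 genes with 1 probe set each. A gene counted as separated when both G4 arrays lay above, or both below, both control arrays, and 9372 genes did (47.4% of all genes).

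The same 4 treatments were given to PC-3 prostate cancer cells and MKN74 gastric cancer cells, 1 array per line and treatment, with no other treatment or genotype named in the labels. In all groups, 300000 cells per well were reverse transfected with Lipofectamine RNAiMAX in a low-adhesion plate for three-dimensional culture and harvested after 72 h. Each oligonucleotide was given at 1.0 ug, about 100 pmol per well. Biotin-labelled RNA made from 100 ng of total RNA was hybridised to human expression arrays. The 2 arrays of a class carry different treatments, so the spread behind each test is that between treatments of a class, and the labels name no separate cultures. HBC4 is 1 line, transfected once per treatment as far as the labels say.

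A G-quadruplex (G4) is a stack of planar guanine tetrads into which guanine-rich DNA or RNA can fold. AS1411 is a guanine-rich DNA aptamer known for binding nucleolin, a nucleolar protein that is also found at the surface of tumour cells. Cells detect foreign nucleic acids through sensors such as RIG-I and MDA5, which lead to type I and type III interferon. Secreted interferon acts through JAK kinases and a complex that holds IRF9, and that complex binds the interferon-stimulated response element (ISRE) in the promoters of interferon-stimulated genes.

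Values are log2 expression relative to the median of each probe set over all 12 arrays, so that 0 is that median and no value is an absolute level. The 4 HBC4 arrays fell into 2 pairs. The reagent and (uuaccc)4 arrays correlated at r = 0.956 across genes, with 22 genes at least 2-fold apart. The (uuaggg)4 and AS1411 arrays correlated at r = 0.955, with 15 genes at least 2-fold apart. Across classes, 152 genes separated the reagent and (uuaggg)4 arrays by at least 2-fold, 158 the (uuaccc)4 and (uuaggg)4 arrays, 198 the (uuaccc)4 and AS1411 arrays and 237 the reagent and AS1411 arrays. Correlations across classes were also high, from r = 0.892 for the reagent and AS1411 arrays to r = 0.923 for the reagent and (uuaggg)4 arrays. The genes share their arrays, so these correlations are descriptions only.

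By limma, with Benjamini-Hochberg adjustment over all genes and a threshold of 0.05, 676 genes differed between G4 and control arrays in HBC4 (3.42% of 19775). Of these, 397 were lower with the G4 oligonucleotides (2.01%) and 279 were higher (1.41%), and every one was separated on all 4 arrays. Decreases reached further than increases. A called change of 2-fold or more was seen for 133 lower genes (0.673%) and 8 higher genes (0.0405%), and 36 genes were lower by 4-fold or more. The median difference over all genes was 0.02. Lists of interferon, nucleic acid sensing, STAT and IRF, and MHC class I genes, 143 measured genes in all with the class II list, held 30 of the 36 genes that were lower by 4-fold or more, 57 of the 133 and 76 of the 397, and none of the 279 higher genes. The number of calls rested on all 4 arrays. Without the AS1411 array it was 146 lower and 47 higher, without the reagent array 194 and 66, without the (uuaccc)4 array 235 and 100, and without the (uuaggg)4 array 290 and 149. Each of these fits leaves a lone array in 1 class, assumed to vary as the other groups do. With each treatment, shared by the 3 lines, as a block within its class, 289 genes were lower and 139 higher. An exact permutation test of 2 against 2 arrays cannot go below p = 0.333.

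**Figure D1:**
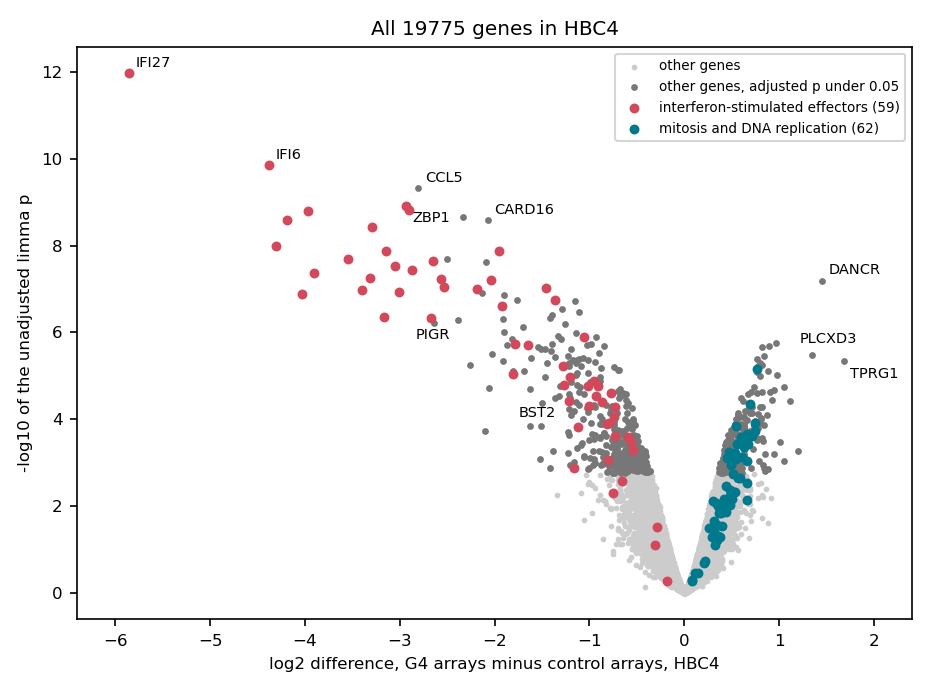
Log2 difference of the G4 arrays minus the control arrays in HBC4 (horizontal axis) against -log10 of the unadjusted limma p (vertical axis), 1 point per gene, 2 arrays against 2. Interferon-stimulated effectors lie on the left as far as IFI27 at -5.85, while mitosis and DNA replication genes lie on the right below 0.8.

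IFI27, a small interferon-induced mitochondrial protein, showed the largest decrease. It stood at 0.64 on the reagent array and 1.07 on the (uuaccc)4 array, against -4.90 on the (uuaggg)4 array and -5.10 on the AS1411 array. Both G4 arrays were far below both controls. For 2 arrays against 2, the difference was -5.85 ± 0.15, or 57.7-fold (limma adjusted p = 2.11e-08). Here and below, ± gives the limma SE after eBayes. The variance behind this SE was estimated from the arrays of all lines, not from the HBC4 arrays alone. In RNA from a whole well, fewer cells expressing a gene and less RNA per cell cannot be told apart. IFI6, an interferon-induced inhibitor of flavivirus replication, read -0.08, 0.05, -4.10 and -4.68 on the reagent, (uuaccc)4, (uuaggg)4 and AS1411 arrays in that order, which is kept below. Its G4 arrays were again both low, with a difference of -4.37 ± 0.18, or 20.7-fold (limma adjusted p = 1.39e-06).

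RSAD2, the antiviral enzyme viperin, read 0.15, 0.36, -3.72 and -4.37, a difference of -4.31 ± 0.27. IFIT1, which binds viral RNA lacking the host cap methylation, read 0.46, 0.65, -2.84 and -4.11, a difference of -4.03 ± 0.33. ISG15, the ubiquitin-like modifier, read 0.49, 0.56, -2.44 and -3.10, or 9.82-fold lower (limma adjusted p = 7.21e-06). In all of these the control arrays lay close together and the G4 arrays well below them, with AS1411 the lower of the pair. The rest of the 12 largest decreases were XAF1, a pro-apoptotic interferon target (-4.19), CMPK2, a mitochondrial nucleotide kinase (-3.97), IFI44L (-3.90), IFI44 (-3.40), the dynamin-like antiviral GTPases MX2 (-3.54) and MX1 (-3.31), and OAS2, which makes the oligoadenylates that activate RNase L (-3.17). All 12 kept their call in every fit that left out an array.

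**Figure D2:**
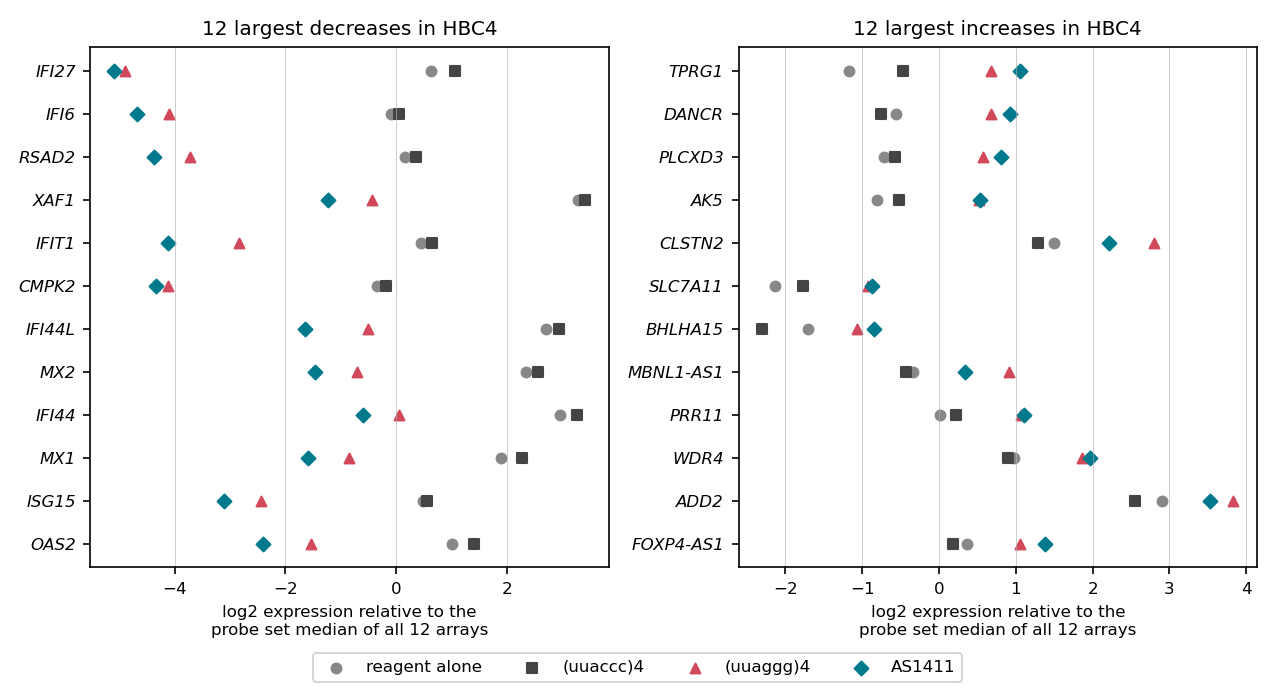
Values of the 12 largest decreases and the 12 largest increases in HBC4 on each of the 4 arrays, as log2 expression relative to the probe set median of all 12 arrays, 1 symbol per array and no averaging. On the left both G4 symbols lie at least 2 units below both control symbols, and on the right the symbols of the 2 classes are closer together but do not overlap.

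The list of interferon-stimulated effectors was lower nearly throughout. Of its 59 measured genes, 54 fell, none rose, and 58 were separated on the 4 arrays. Over all genes 2.01% were called lower and 21.5% were separated downward. The median difference was -1.46 against 0.02 for all genes. The count was lowest, 40, without the AS1411 array. Besides the genes above, the decreases included OAS1 (-2.93), LAMP3 (-2.90), the RNA-binding IFIT3 (-2.65), IFITM1, a membrane protein that blocks viral entry (-3.14), and the ligase HERC5, which attaches ISG15 to proteins (-2.88). Smaller decreases were seen for EIF2AK2, the double-stranded RNA kinase PKR (-0.80), PML (-0.81) and IFITM3 (-0.74). The 5 members that did not pass were BATF2 (-0.75), TRIM14 (-0.66), SERPING1 (-0.31), APOL2 (-0.29) and APOL6 (-0.18), and only APOL6 had overlapping classes. HERC6 (-1.93) has another probe set at 0.19, PARP14 (-1.46) another at 0.21 and PML another at 0.22, so the probe sets of these genes disagreed.

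The RefSeq promoter windows of GRCh38.p14, 250 bases before to 50 bases after each start site, were searched on either strand for the ISRE core, GAAA and a further GAAA with any 2 bases between them. Of the 397 lower genes 301 had a window, and 55 of those held the motif (18.3%), compared with 2.94% of the 15384 windows of all genes tested. Among genes lower by 2-fold or more it was 38 of 99 (38.4%), among the 12 largest decreases 7 of 10 (70.0%) and among the higher genes 3 of 235 (1.28%). Over all 27305 windows of the table the share was 3.65%. The motif is part of a promoter sequence and was not measured here, so a match describes the letters of the window. Windows of 4 genes with large decreases are printed on the gene's strand, with the ISRE matches in capitals, overlapping matches joined.
IFI27, chr14:94110486-94110785, plus strand: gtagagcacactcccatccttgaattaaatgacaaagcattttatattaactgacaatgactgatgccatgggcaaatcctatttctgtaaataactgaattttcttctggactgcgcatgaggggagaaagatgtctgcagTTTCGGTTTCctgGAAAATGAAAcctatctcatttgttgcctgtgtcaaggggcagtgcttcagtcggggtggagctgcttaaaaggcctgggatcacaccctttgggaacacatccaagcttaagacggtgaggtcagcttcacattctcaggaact
IFI6, chr1:27672143-27672442, minus strand: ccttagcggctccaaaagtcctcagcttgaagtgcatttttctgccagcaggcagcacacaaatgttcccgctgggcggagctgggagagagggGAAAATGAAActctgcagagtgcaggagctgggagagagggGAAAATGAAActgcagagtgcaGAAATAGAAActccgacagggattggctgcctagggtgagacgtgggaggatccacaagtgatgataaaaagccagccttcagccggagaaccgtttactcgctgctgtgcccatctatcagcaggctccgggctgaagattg
IFIT1, chr10:89392373-89392672, plus strand: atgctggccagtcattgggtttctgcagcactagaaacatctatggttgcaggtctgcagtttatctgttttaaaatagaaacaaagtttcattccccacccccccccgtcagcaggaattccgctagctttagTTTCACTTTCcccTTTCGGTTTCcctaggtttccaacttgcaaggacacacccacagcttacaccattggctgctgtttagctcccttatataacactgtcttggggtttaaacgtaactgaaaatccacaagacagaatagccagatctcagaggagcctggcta
ISG15, chr1:1013247-1013546, plus strand: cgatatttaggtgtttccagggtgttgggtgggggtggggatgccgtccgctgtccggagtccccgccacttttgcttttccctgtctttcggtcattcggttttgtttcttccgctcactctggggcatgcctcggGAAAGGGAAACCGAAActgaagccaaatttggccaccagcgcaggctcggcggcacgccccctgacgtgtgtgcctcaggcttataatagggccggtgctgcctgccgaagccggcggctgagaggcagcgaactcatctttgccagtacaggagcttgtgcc

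IFI27, IFIT1 and ISG15 each hold 2 matches and IFI6 holds 3. Counted from the start site, with upstream positions negative, the first match begins at -108 in IFI27, -116 in IFIT1, -113 in ISG15 and -156 in IFI6. The GAS core TTCNNNGAA, the element of interferon gamma signalling, was in 33 of the 301 windows of lower genes, in 14 of the 235 windows of higher genes (5.96%) and in 6.95% of those of all genes tested.

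Among the ligands, 3 of 12 measured interferon and receptor genes fell, against 2.01% of all genes, and none rose. IFNL2, a type III interferon, read 1.58, 1.72, -1.41 and -0.57 (difference -2.63 ± 0.25, limma adjusted p = 0.000262). IFNB1, the type I interferon beta, read 0.73, 1.18, -0.49 and -0.25 (-1.33 ± 0.19, adjusted p = 0.00403). IFNL1 read 0.53, 0.63, -0.49 and -0.75 (-1.20 ± 0.19, adjusted p = 0.00804). All 3 had both G4 arrays low, and IFNL1 lost its call without the (uuaccc)4 array or without the AS1411 array. IFNL2 has a close paralog among the type III interferons, which its probe set may also read. No receptor gene named here passed the threshold, with IFNAR1 at 0.01, IFNAR2 at -0.25 (limma adjusted p = 0.195), IFNLR1 at 0.06 and IL10RB at -0.30. IFNAR2 was separated downward, but another of its probe sets was at 0.30. The sign of IFNAR1 turned in 3 other settings, between -0.01 and -0.03.

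Of 19 signalling genes, 3 fell, against 2.01% of all genes. IRF9 read -0.01, -0.15, -1.17 and -1.74 (-1.37 ± 0.16, limma adjusted p = 0.000985). IRF7, which drives the later wave of interferon transcription, read 0.31, 0.04, -1.02 and -1.44 (-1.40 ± 0.15, adjusted p = 0.000634). USP18, which removes ISG15 and dampens the type I receptor, read 0.11, 0.23, -2.10 and -2.62 (-2.53 ± 0.20). The kinases JAK1 (0.00) and TYK2 (-0.04) and the factor IRF3 (0.01), whose activity is set by phosphorylation, did not pass, and the median of the list was -0.14.

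Nucleic acid sensors and their adaptors had 8 of 23 lower, against 2.01% of all genes, and none higher, with a median of -0.39. The decreases were in the sensors and effectors DDX60 (-2.50), ZBP1 (-2.34), IFI16 (-2.10), IFIH1 (MDA5, -2.09), RIGI (RIG-I, -2.03), the endosomal double-stranded RNA receptor TLR3 (-1.42), ADAR (-0.62) and ZC3HAV1 (-0.62). ZBP1, a sensor of Z-form nucleic acid, read 2.29 and 2.39 on the controls against 0.00 and 0.01 on the G4 arrays. The adaptors and kinases MAVS (-0.11), STING1 (-0.39), TICAM1 (-0.14) and TBK1 (-0.14) did not pass, nor did TLR9, the receptor for unmethylated CpG DNA (0.18), or CGAS (-0.18). The number of lower members was 5 without the AS1411 array, without the (uuaccc)4 array and in a fit of the HBC4 arrays alone.

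MHC class I presentation had 8 of 20 lower, against 2.01% of all genes, and none higher, with a median of -0.39. NLRC5, the transactivator of class I genes, read 2.17, 2.46, 0.98 and 0.83 (-1.41 ± 0.16, limma adjusted p = 0.000781). TAP1, a subunit of the peptide transporter, read 1.52, 1.62, 0.68 and 0.59 (-0.93 ± 0.10, adjusted p = 0.000486). HLA-C was at -1.14, HLA-E at -1.21, HLA-F at -1.09 and the immunoproteasome subunit PSMB9 at -1.20. Class I heavy chains are alike enough that a probe set may read more than 1 of them. The light chain B2M (-0.25, adjusted p = 0.157) did not pass. Without the AS1411 array 5 members passed. Of 11 class II genes only CTSS, a lysosomal protease, fell (-1.69 ± 0.21), while the transactivator CIITA (0.34) and CD74 (-0.29) did not pass.

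Of 26 cytokine, chemokine and NF-kB genes, 4 fell, against 2.01% of all genes. CCL5, a T cell attractant, read 2.74, 2.87, 0.09 and -0.09 (-2.80 ± 0.13, limma adjusted p = 3.13e-06). The interferon-inducible chemokines CXCL11 (-2.26) and CXCL10 (-1.87) and the siderophore-binding LCN2 (-0.87) were the others, and LCN2 lost its call without the reagent array or without the AS1411 array. The median of this list was 0.03 for (uuaggg)4 minus (uuaccc)4 and -0.43 for AS1411 minus reagent, 1 array each. Complement had 3 of 11 lower, against the same 2.01% of all genes. CFB was at -2.06, with another probe set at 0.20, C1S at -1.62 and C3 at -0.71. C1S lost its call without the (uuaccc)4 or AS1411 array, and C3 without the reagent, (uuaccc)4 or AS1411 array. Of 25 cell death genes 4 fell, again against 2.01% of all genes. TNFSF10, the death ligand TRAIL, read 3.35, 3.51, 1.18 and 0.34 (-2.67 ± 0.25), XAF1 is given above, CASP1 was at -1.45 and CARD16, a CASP1 inhibitor, at -2.07, with another CARD16 probe set at 0.33.

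**Figure D3:**
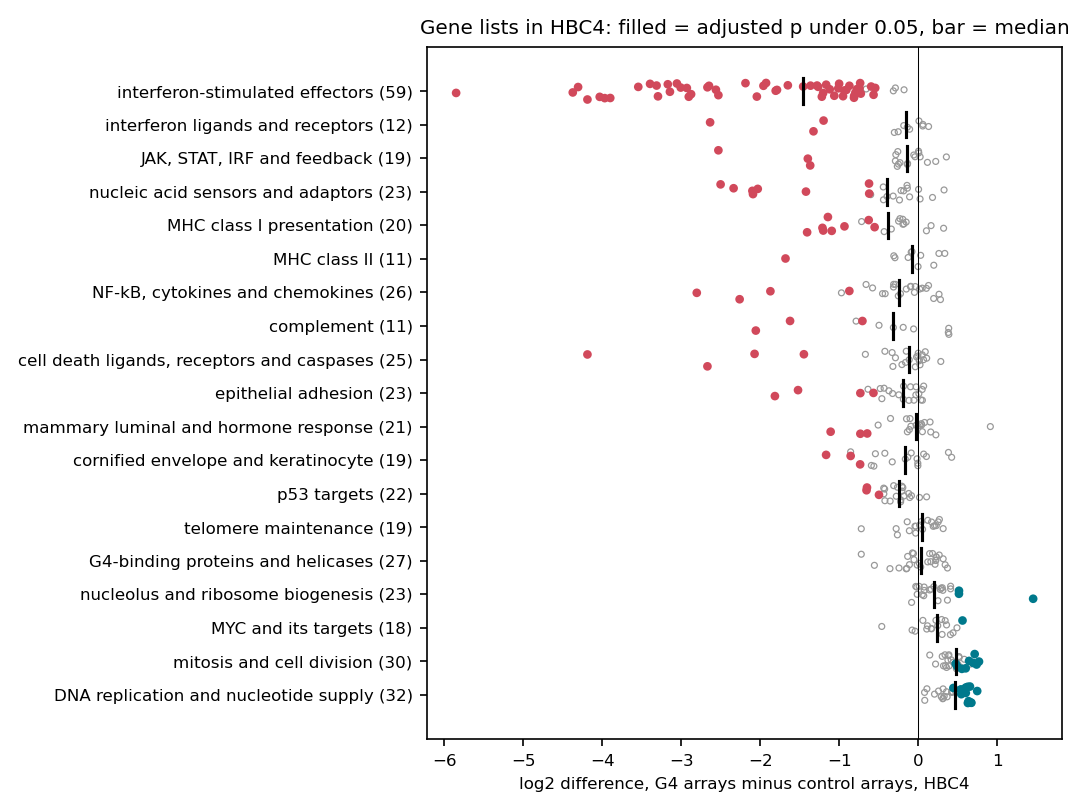
Gene lists in HBC4, with the log2 difference of G4 minus control arrays of every measured member as a point (filled where the adjusted p was under 0.05) and the median of each list as a bar, 2 arrays against 2. The interferon-stimulated effectors have the lowest median, -1.46, and the mitosis list has the highest, 0.48.

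Of 30 mitosis genes 9 rose, against 1.41% of all genes, and none fell. In this list 29 were separated upward, against 25.9% of all genes, with a median of 0.48. CDC20, which switches on the anaphase-promoting ubiquitin ligase, read 0.10, 0.26, 0.92 and 0.99 (0.77 ± 0.09, limma adjusted p = 0.00137). PRC1, a bundler of spindle midzone microtubules, read -0.50, -0.26, 0.26 and 0.37 (0.70 ± 0.11, adjusted p = 0.0056). In both genes the G4 arrays were high and the reagent array was the lowest of the 4. Cyclin A (CCNA2, 0.74), AURKA (0.72), CCNB2 (0.64), KIF2C (0.60), TPX2 (0.55), ANLN (0.49) and AURKB (0.48, with another probe set at -0.08) also rose, whereas CDK1 (0.36, adjusted p = 0.27) and MKI67 (0.32, adjusted p = 0.331) did not pass. The (uuaccc)4 array was also above the reagent array for this list, by a median of 0.24, and (uuaggg)4 was above (uuaccc)4 by a median of 0.28.

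Of 32 replication genes 14 rose, against 1.41% of all genes, and none fell. In this list 29 were separated upward, against 25.9% of all genes, with a median of 0.46. ORC1, a subunit of the origin recognition complex, read 0.10, 0.38, 0.95 and 1.02 (0.75 ± 0.13, limma adjusted p = 0.0148). MCM4, a subunit of the replicative helicase, read 0.45, 0.76, 1.23 and 1.31 (0.67 ± 0.12, limma adjusted p = 0.0174), though its lowest probe set was at 0.002. RRM1, the large subunit of ribonucleotide reductase, was at 0.66 and the licensing factor CDT1 at 0.54. These counts rested on single arrays. Replication members called were 0 without the reagent array, 0 without the AS1411 array, 3 without the (uuaccc)4 array, 8 without the (uuaggg)4 array, 6 without the PC-3 arrays and 0 in a fit of the HBC4 arrays alone, and with treatment as a block they were 9. Mitosis members called were 2, 1, 7, 6, 4, 1 and 8 in that order. Of the named genes, CDC20 kept its call without each array.

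Of the 8 increases of 2-fold or more, TPRG1 was the largest, reading -1.17, -0.47, 0.68 and 1.06 (1.68 ± 0.20, limma adjusted p = 0.00109). DANCR, a long noncoding RNA that hosts small nucleolar RNA, read -0.56, -0.75, 0.68 and 0.92 (1.46 ± 0.11, adjusted p = 5.3e-05). PLCXD3 read -0.72, -0.58, 0.58 and 0.81 (1.34 ± 0.15, adjusted p = 0.000917). Both classes were tight around their means in DANCR and PLCXD3, and the control arrays of TPRG1 were further apart than its G4 arrays. SLC7A11, the cystine transporter subunit that supplies glutathione synthesis, read -2.13, -1.77, -0.92 and -0.88 (1.05 ± 0.14, adjusted p = 0.00283). The other increases among the 12 largest were AK5, an adenylate kinase (1.19), CLSTN2 (1.12), the secretory cell factor BHLHA15 (1.05), MBNL1-AS1 (1.01), PRR11 (0.97, with another probe set at -0.18), WDR4, a subunit of a tRNA methyltransferase (0.97), the cytoskeletal adducin ADD2 (0.95) and FOXP4-AS1 (0.94). AK5 and ADD2 lost their call without any 1 of the 4 arrays, BHLHA15 without the (uuaccc)4, (uuaggg)4 or AS1411 array and MBNL1-AS1 without the reagent, (uuaccc)4 or (uuaggg)4 array. The lowest probe sets of WDR4 (0.01), ADD2 (0.09), MBNL1-AS1 (0.18) and CLSTN2 (0.31) were of the same sign but much smaller. Probes of an antisense gene may overlap its partner gene, which was not tested.

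None of 19 telomere maintenance genes and none of 27 G4-binding proteins and helicases was called, with medians of 0.04 and 0.03. Over all genes 3.42% were called, and at that share lists this short would hold few calls or none. At an unadjusted limma p under 0.05 there were 2 lower and 3 higher telomere genes and 2 lower and 5 higher G4-binding genes, compared with 3646 of the 19775 genes in all. Nucleolin (NCL), the known partner of AS1411, read -0.14, -0.02, 0.02 and 0.11 (0.14 ± 0.09, adjusted p = 0.459). The shelterin proteins TERF1 (-0.03) and TERF2 (0.17), the G4 helicase DHX36 (-0.11), the chromatin remodeller ATRX (-0.72 ± 0.36, adjusted p = 0.324) and the RNA-binding FMR1 (-0.36, adjusted p = 0.0505) did not pass either. ATRX had overlapping classes, with -0.86 and 0.25 on the controls. The nucleolar list had 3 of 23 higher, namely DANCR, the methyltransferase FBL (0.52) and NOP16 (0.52, with 2 of 4 probe sets of this sign), with a median of 0.20. FBL and NOP16 lost their calls without any 1 of the 4 arrays. Of 18 genes of MYC and its targets, only SHMT1, a folate-cycle enzyme, passed (0.56). Its other probe set was at -0.42, and the call was lost without any 1 of the 4 arrays. MYC itself read -0.57, -0.65, -0.30 and -0.10 (0.41 ± 0.10, adjusted p = 0.0531).

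Of 22 p53 targets 3 fell and 15 were separated downward, against 2.01% and 21.5% of all genes, with a median of -0.24. They were TP53INP1 (-0.65, with another probe set at 0.23), GDF15 (-0.65, with another at 0.12) and RRM2B, the p53-inducible ribonucleotide reductase subunit (-0.50), and all 3 lost their call without the AS1411 array. Stress lists held few calls, and at the 3.42% called over all genes lists this short would hold few. Heat shock (13 genes) and immediate early genes (20) had no called member by limma. Under an unadjusted 0.05 they had 1 and 4 members, against 3646 of all 19775 genes. ATF4 and unfolded protein response genes had SLC7A11 alone of 24, hypoxia genes had PDK3, a pyruvate dehydrogenase kinase, higher (0.68) of 26, oxidative stress genes had SLC7A11 and NQO1 (0.49) higher of 20, and cholesterol synthesis had INSIG1 lower (-0.43) of 16. PDK3 lost its call without the AS1411 array, and NQO1 and INSIG1 without at least 3 of the arrays. Of 18 stemness markers the drug efflux pump ABCG2 rose (0.83 ± 0.19, limma adjusted p = 0.0403), and lost its call without the reagent, (uuaggg)4 or AS1411 array.

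Some epithelial genes were lower. Of 23 adhesion genes 4 fell, with a median of -0.19. Over all genes 2.01% were called lower, the share to set beside the keratinocyte and mesenchymal counts below as well. CEACAM6, an adhesion molecule of the carcinoembryonic antigen family, read 1.12, 0.76, -0.76 and -0.98 (-1.81 ± 0.19, limma adjusted p = 0.000509). CEACAM5 (-1.52, with another probe set at 0.41), MUC1 (-0.73) and ELF3 (-0.57) also fell, and each of these lost its call without the reagent or the AS1411 array. The (uuaccc)4 array was itself below the reagent array for the adhesion list, by a median of -0.29, and the (uuaggg)4 array differed from (uuaccc)4 by a median of -0.02. Keratinocyte genes had 3 of 19 lower, KRT16 (-0.73), KRT13 (-0.85) and SPRR3 (-1.17), each lost without the reagent or the AS1411 array, and for this list too (uuaccc)4 was below the reagent, by a median of -0.37. Of 24 mesenchymal genes FN1 (fibronectin, -1.11) and COL1A1 (-0.83) fell. COL1A1 had only 2 of 5 probe sets of this sign and lost its call without the AS1411 array.

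Of 21 mammary luminal genes 3 fell, against 2.01% of all genes. ESR1, the estrogen receptor alpha, read 3.67, 3.91, 2.70 and 2.67 (-1.11 ± 0.13, limma adjusted p = 0.00103), with 5 of its 9 probe sets of this sign. ERBB3, a receptor of the EGF family, was at -0.65, and MUC1 is given above. The luminal factor GATA3 (-0.35, adjusted p = 0.0846) and all 11 basal genes, KRT14 (-0.67, adjusted p = 0.0601) among them, did not pass, with 1 basal gene under an unadjusted 0.05. KRT14 passed with treatment as a block (adjusted p = 0.0434). As a check of the label, 7 of 9 breast epithelium markers were highest in HBC4 on the control arrays. However, only ESR1 and TRPS1 were at least 2-fold above both other lines, and TBX3 and PGR were below both. The leukocyte markers CD14 and LYZ were also at least 2-fold higher in HBC4, while PTPRC and CD3D were not. The fibroblast marker FAP, the endothelial marker KDR and the general epithelial marker CDH1 were at least 2-fold higher there too. Summed over their markers, leukocyte values ranged from 5.32 to 5.56 on the control arrays and from 5.01 to 5.46 on the G4 arrays, and general epithelium from -2.23 to -0.61 and from -2.36 to -1.46, with overlap in both. The sums of the other types did not overlap, but 47.4% of all single genes were separated in the same way on these 4 arrays. Breast markers ranged from 5.36 to 5.83 on the controls and from 5.05 to 5.29 with G4, prostate from 0.30 to 0.68 and from -0.23 to 0.24, fibroblast from -1.69 to -0.65 and from -2.54 to -2.53, and endothelium from 1.72 to 1.98 and from 1.29 to 1.34. Gastric and intestinal markers ranged from -1.17 to -0.13 on the controls and from 0.60 to 1.46 with G4, and melanocyte markers from -0.27 to 0.04 and from 0.35 to 0.60. Of all these markers only ESR1 and COL1A1 passed the test singly, and the part of other cell types in the results was not tested.

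The 2 G4 oligonucleotides gave like patterns and different sizes. Among comparisons that share no array, (uuaggg)4 minus (uuaccc)4 and AS1411 minus reagent, the differences correlated at r = 0.457 over all genes (Spearman 0.265), and for the interferon-stimulated effectors the medians were -1.47 and -1.56. AS1411 lay below (uuaggg)4 in 56 of 59 interferon-stimulated effectors, by a median of 0.26, compared with 9999 of 19775 genes overall. It was the further from the controls for 295 of the 397 lower genes and 197 of the 279 higher genes. In the same list (uuaccc)4 lay above the reagent in 49 of 59 genes, by a median of 0.14, so the AS1411 and (uuaccc)4 arrays were the extremes. There is 1 array of each, so these differences have no test, and the DNA or RNA backbone and the sequence cannot be told apart between (uuaggg)4 and AS1411.

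Among the genes called in HBC4, the 4 largest differences between the 2 G4 arrays in each direction were as follows. IFIT1 was at -2.84 with (uuaggg)4 and -4.11 with AS1411, IFI44L at -0.51 and -1.64, CP, the copper carrier ceruloplasmin, at -0.23 and -1.13, and EPSTI1 at 0.95 and 0.09. In the other direction IFNL2 was at -1.41 with (uuaggg)4 and -0.57 with AS1411, GPATCH2 at -0.20 and 0.42, DNM3, a dynamin, at 1.10 and 1.69, and PABIR3 at -1.22 and -0.67. PABIR3 has only 1 of 4 probe sets with the sign reported, and GPATCH2 3 of 5. Neither kept its call in all fits that left out an array, nor did CP.

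**Figure D4:**
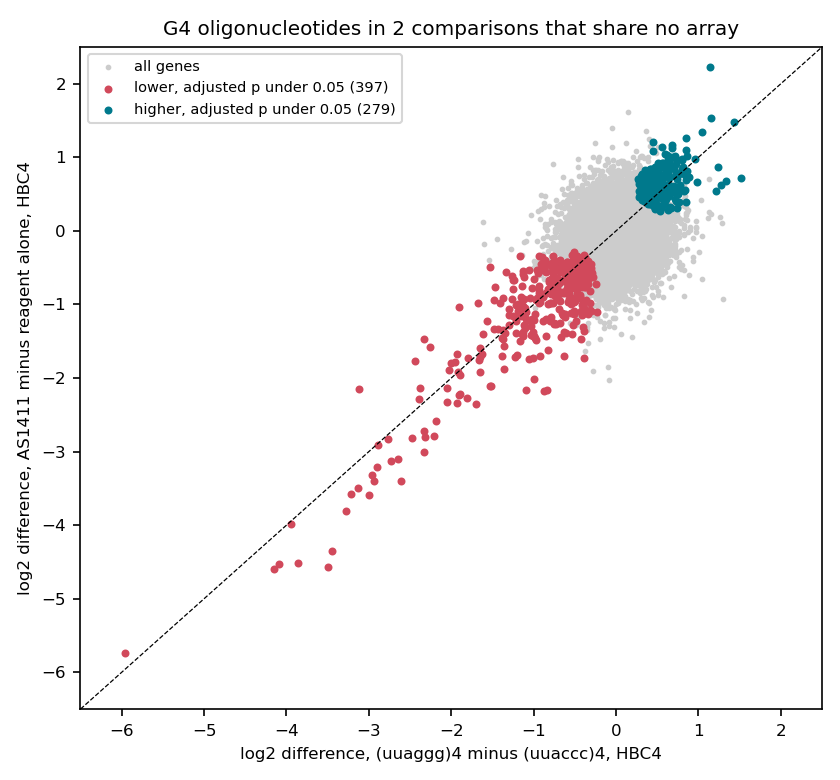
Log2 difference of (uuaggg)4 minus (uuaccc)4 (horizontal axis) and AS1411 minus reagent (vertical axis) in HBC4, 1 array each and no array in common, 1 point per gene, with the dashed line at equality. The 397 lower genes extend to the lower left, mostly below the line at large decreases, and the 279 higher genes lie at the upper right.

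The same contrast called 382 genes in PC-3 (1.93%), lower in 1.29% of all genes and higher in 0.637%. In MKN74 it called 362 genes (1.83%), lower in 1.38% and higher in 0.455%. Of the 397 genes lower in HBC4, 122 were also called lower in PC-3 (30.7%), 86 in MKN74 (21.7%) and 59 in both. Of the 279 higher genes, 8 were also called higher in PC-3 and 14 in MKN74. By sign alone, 169 of these 279 were above 0 in both other lines, compared with 5763 of all 19775 genes. Of the 397 lower genes, 257 were below 0 in both, compared with 5294 of all genes. The median of the mitosis list was 0.29 in PC-3 and 0.47 in MKN74, and that of the replication list 0.08 and 0.21. The median of the interferon-stimulated effectors was -2.01 in PC-3 and -1.004 in MKN74, on either side of the HBC4 value. Passing in 1 line and not in another is no test of a difference, so the effect in HBC4 was tested against the mean effect of the other lines, and 86 genes differed by limma (0.435% of all genes), 50 with a more negative effect in HBC4 and 36 with a more positive one. Against PC-3 alone 73 genes differed (0.369%), and against MKN74 alone 128 (0.647%). Probe sets were chosen by the spread of the line means, a choice that can raise the number of such genes. The 86 genes became 16 without the reagent array, 21 without the (uuaccc)4 array, 43 without the (uuaggg)4 array, 21 without the AS1411 array, 19 without the MKN74 arrays, and 38 with treatment as a block.

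IFI27 had the largest such difference, with effects of -5.85 in HBC4, -4.21 in PC-3 and -1.40 in MKN74 (difference -3.05 ± 0.19, limma adjusted p = 0.000151). PIGR, the transporter of secretory immunoglobulin, read 3.17, 3.56, 1.36 and 0.58 in HBC4, an effect of -2.39 against 0.12 in PC-3 and 0.17 in MKN74 (difference -2.53 ± 0.27, adjusted p = 0.00509), though its other probe set was at 0.36. ZBP1 was at -2.34 against -0.08 and 0.12 (adjusted p = 0.00016), and CARD16 at -2.07 against -0.09 and -0.14 (adjusted p = 0.000235). MX1 and IFI6 were more negative than the mean of the lines, with PC-3 effects of -1.91 and -3.49 and MKN74 effects of -0.22 and -0.84. For ZBP1, PIGR and CARD16 both other lines were near 0, whereas for IFI27, MX1 and IFI6 the PC-3 effect lay nearer to that of HBC4 than the MKN74 effect did. Of the 59 interferon-stimulated effectors, 10 had a more negative effect in HBC4 than in the mean of the other lines, compared with 0.253% of all genes. In BST2, tetherin, the effect was more positive, -1.22 in HBC4 against -3.95 in PC-3 and -1.79 in MKN74 (limma adjusted p = 0.0153). The HBC4 call of BST2 was lost without the AS1411 array. By limma BST2 differed from PC-3 alone (adjusted p = 0.00208) but not from MKN74 alone (adjusted p = 0.418). In PLSCR1, phospholipid scramblase, the effect was also more positive, -0.94 against -2.57 and -1.12 (limma adjusted p = 0.0497).

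Other genes with a more positive effect in HBC4 were not interferon effectors. PLCXD3 rose in HBC4 (1.34) and was at -0.35 in PC-3 and -0.54 in MKN74 (difference 1.79 ± 0.19, limma adjusted p = 0.0044). TPRG1 was at 1.68 against 0.21 and 0.08 and CLSTN2 at 1.12 against -0.28 and 0.09. THEMIS2, a signalling adaptor of immune cells, was at 0.63 against -1.40 and 0.07. Against single lines, TPRG1 did not pass against PC-3, nor CLSTN2 and THEMIS2 against MKN74. ARL14, a small GTPase, did not pass in HBC4 (-0.09) and was at -1.53 in PC-3 and -1.01 in MKN74 (difference 1.18 ± 0.19, adjusted p = 0.0322). TPRG1 and PLCXD3 therefore rose in HBC4 alone among values past the threshold, and ARL14 differed through the other lines. SOX4, a developmental transcription factor, differed in sign, at -0.34 in HBC4 (adjusted p = 0.0867) against 0.55 and 0.90 (difference -1.07 ± 0.12, adjusted p = 0.00541). For DNM3 the effect was -1.90 against -0.12 and -0.01, and for ESR1 -1.11 against -0.11 and -0.19 (difference -0.96 ± 0.16, limma adjusted p = 0.0376). Against each line alone ESR1 did not pass (limma adjusted p = 0.0568 for PC-3 and 0.0561 for MKN74). On the control arrays ESR1 stood at 3.79 in HBC4, -0.10 in PC-3 and 0.15 in MKN74. For genes with effects near 0 in both other lines, whether a low level there left little room to fall was not tested. Among the 45 genes that were lower in HBC4 with a more negative effect there, 8 of 30 promoter windows held the ISRE core (26.7%).

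**Figure D5:**
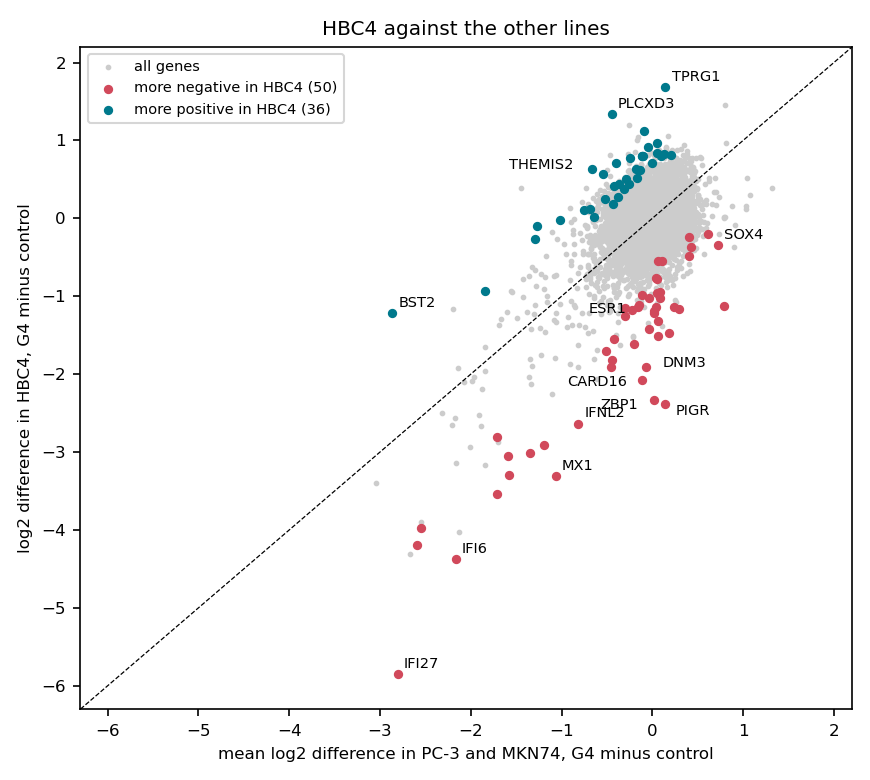
Log2 difference of G4 minus control arrays in HBC4 (vertical axis) against the mean difference of PC-3 and MKN74 (horizontal axis), 1 point per gene, with the dashed line at equality. Coloured points mark the 50 genes with a more negative and the 36 with a more positive effect in HBC4, and IFI27 lies furthest below the line.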

How the data were processed

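The deposited values are log2 expression of an Affymetrix human array, made by the authors with RMA, per the submitters' processing notes. Each probe set has a median of 0 over the 12 arrays, a centring found from the values, so that no absolute level or detection call could be given. Depth does not apply to arrays, and their number limits the precision. Of 54675 probe sets, 62 array controls, 11721 with no gene and 1801 with several genes were left out. The 41091 others named 19775 genes. Where a gene had several probe sets, the 1 whose 3 line means had the highest SD stood for it. The limma package (3.58.1, under R 4.3.3) fitted 6 groups, line by class with 2 arrays each, by lmFit and then eBayes without a trend, leaving 6 residual degrees of freedom, and p-values were adjusted by Benjamini-Hochberg over all genes. The fit was tested on simulated data. Alternatives were other probe set rules, quantile and median centring, robust eBayes, an SD filter, HBC4 alone, leaving out each HBC4 array or each other line, and treatment as a block, the last added after seeing the data. The lists and members were chosen with earlier results of these data known. Named genes were the 12 largest called differences in each direction, the 6 largest differences from the other lines in each direction, from every list the 4 genes of lowest p, the 4 largest differences between the G4 arrays in each direction among called genes and 15 fixed genes, of which those measured are given. Further list members, PLSCR1 and SOX4's sign were named after their values were seen. Promoter windows came from RefSeq GRCh38.p14. The sequences of the oligonucleotides and some fixed genes are not reported here.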

Additional observations from a re-analysis of the deposited data

Results flagged for a closer look

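The HBC4 effect differed from the mean effect of PC-3 and MKN74 by the limma test of the difference itself in the following genes. The difference, HBC4 minus the other lines on the log2 scale, was negative for the interferon-stimulated genes IFI27 (-3.05), MX1 (-2.25), IFI6 (-2.21), MX2 (-1.83), ISG15 (-1.72), LAMP3 (-1.71), EPSTI1 (-1.66), XAF1 (-1.59) and CMPK2 (-1.42). By limma against PC-3 alone, IFI27 (adjusted p = 0.0151) and LAMP3 (0.0473) differed. MX1 (0.139), IFI6 (0.197), MX2 (0.231), ISG15 (0.0804), EPSTI1 (0.55), XAF1 (0.336) and CMPK2 (0.397) did not. Against MKN74 alone all of these genes passed. Outside that list the difference from the mean of the other lines was negative for the sensor ZBP1 (-2.36), the interferon IFNL2 (-1.82), the chemokine CCL5 (-1.09) and the caspase inhibitor CARD16 (-1.96). It was also negative for PIGR (-2.53), DNM3 (-1.84), CEACAM6 (-1.37), SOX4 (-1.07) and ESR1 (-0.96). The difference was positive for PLCXD3 (1.79), BST2 (1.65), TPRG1 (1.54), THEMIS2 (1.30), CLSTN2 (1.21), ARL14 (1.18), WDR4 (0.92) and PLSCR1 (0.91). By limma against PC-3 alone, TPRG1 (adjusted p = 0.0665) and ESR1 (0.0568) did not pass. Against MKN74 alone, IFNL2 (adjusted p = 0.119), CEACAM6 (0.0747), ESR1 (0.0561), BST2 (0.418), THEMIS2 (0.162), CLSTN2 (0.0911) and ARL14 (0.0963) did not pass. Among the 11721 probe sets that name no gene, which no comparison above used, 48 were lower and 24 higher in HBC4 at the same threshold, and among the 1801 that name several genes 20 were lower and 9 higher.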

How the results depend on the processing

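The labels carry no replicate numbers, but each treatment was given to all 3 lines. With treatment as a block within its class, chosen after seeing the data and leaving 4 residual degrees of freedom, 289 genes were lower and 139 higher, 407 of these 428 being among the 676 reported, 38 effects differed from the other lines (27 more negative, 11 more positive), 9 replication genes were called and 78 of the 88 named genes kept their call. The calls lost were ABCG2, C3, CEACAM5, ELF3, GDF15, INSIG1, KRT13, NOP16, NQO1 and PABIR3. Counts below are of genes past the threshold in HBC4. They were 163 lower and 32 higher with the HBC4 arrays alone, 239 and 105 without PC-3, and 291 and 170 without MKN74. Leaving out 1 HBC4 array in turn gave 146 to 290 lower and 47 to 149 higher genes, 16 to 43 genes different from the other lines, 14 to 33 of them more negative and 2 to 10 more positive, and 6586 to 6975 genes separated downward and 7583 to 7895 upward, since fewer arrays must be passed. Under the same 4 settings 40 to 51 interferon-stimulated effectors, 5 to 6 sensors, 5 to 7 MHC class I genes, 1 to 7 mitosis genes and 0 to 8 replication genes were called, with effector medians from -1.59 to -1.35. HBC4 alone called 5 sensors, 1 mitosis gene and 0 replication genes, and without PC-3 it was 4 and 6 of the last lists. Without MKN74 the genes different from the other lines were 19, 6 more negative and 13 more positive. Using all probe sets, 8472 lower and 10648 higher were separated. With the SD filter these were 2762 and 2550, the effector median was -1.55, and 58 effects were more positive in HBC4. Averaging probe sets gave medians of -1.35 for effectors and -0.26 for sensors, and choosing them on control arrays gave -1.36, -0.32 and, for MHC class I, -0.51. Under that choice PABIR3 (0.17) and SHMT1 (-0.42) turned sign. Uncalled genes that turned were MME (0.088 with averaged probe sets, and -0.41 to 0.031 when 1 array was left out), IFNAR1 (-0.006 with median centring, and -0.032 to 0.052), TERF1 (-0.13 to 0.071), ARL14 (-0.33 to 0.15) and DHX36 (-0.22 to 0.0038). The cause of these changes was not tested beyond the number of arrays and genes used. Of 88 named genes called in HBC4, 54 kept their call with HBC4 alone, 72 without PC-3, 72 without MKN74, 59 without the reagent array, 69 without (uuaccc)4, 70 without (uuaggg)4, 55 without AS1411, 74 with averaged probe sets, 81 with quantile normalization and 85 to 88 in the other 5 settings. Values are relative, probe sets of a gene can disagree, dim probe sets could not be filtered by level, and 1 array per treatment leaves single oligonucleotides untested.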

Other observations

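Some gene families were looked at by symbol after their values were seen, and so have no test. All 3 measured butyrophilins of the 3A group, a family linked to gamma delta T cells, fell in HBC4. On the log2 scale BTN3A3 fell by 1.91, BTN3A1 by 1.37 and BTN3A2 by 1.30. Of 42 histone cluster genes, whose transcripts normally lack a poly(A) tail, 9 fell and none rose, among them H2AC6 (-1.19) and H2BC4 (-1.11), while the median of the family was -0.03 and 15 were separated downward. Over all genes 2.01% were called lower, 1.41% called higher, 21.5% separated downward and 25.9% separated upward. Of 466 ZNF zinc finger genes 18 fell and none rose, with 193 separated downward, 64 upward and a median of -0.10. Of 75 mitochondrial ribosomal proteins 5 rose and none fell, with 52 separated upward and a median of 0.16, and 4 of 19 tubulins rose, TUBA1B (0.47) and TUBA1C (0.46) among them. CD274, the immune checkpoint ligand PD-L1, and IDO1, the tryptophan-degrading enzyme, fell by 1.39 and 1.23.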
